A study of Mus musculus with 2 samples.

Results

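The Toll-like receptor (TLR) genes of the mouse were followed in a DNase I hypersensitivity table of M1 cells. A gene was a member where the name of a listed transcript, without its closing number, was Tlr1, Tlr2, Tlr3, Tlr4, Tlr5, Tlr6, Tlr7, Tlr8, Tlr9 or Tlr13, and its transcript with the most windows stood for the gene. This gave 10 of 22605 genes and 19 of 55432 transcripts. M1 is a murine myeloid leukemia line of the progenitor stage, which becomes macrophage-like when it is cultured with the cytokine interleukin-6 (IL-6). In DHS-seq, nuclei are cut lightly with DNase I, open chromatin is cut first, and the small fragments between neighboring cuts are sequenced. The 2 groups were untreated M1 cells and M1 cells kept in IL-6 for 4 to 5 days, both at passages 15 to 18, with 1 library each and no further allele or agent named in the labels. Both come from the same cell line, so the comparison is within 1 line and has no replicate check.

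TLRs are single-pass membrane receptors that recognize molecules of microbes and start the innate immune response of macrophages and their relatives. Tlr1, Tlr2, Tlr4, Tlr5 and Tlr6 act at the cell surface on lipopeptides, lipopolysaccharide and flagellin. Tlr3, Tlr7, Tlr8, Tlr9 and Tlr13 act in endosomes on nucleic acids. Ligand binding recruits adaptors such as Myd88 and Ticam1 and leads to activation of NF-kB and interferon regulatory factors.

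The table gives the mean and the SD of the signal over the 700-bp windows, counted from the start of each chromosome, that a transcript's coding span (start codon to stop codon) touches. Whole reads were recovered from these means. Over the spans of all genes the M1 library held 9327942 reads and the IL-6 library 8704059 reads, where reads under overlapping genes count for each of them. Each IL-6 read was worth 1.04 in the deposited values and each M1 read 1.0, and levels below carry this scaling. Ratios are M1+IL-6 over M1 with 95% Clopper-Pearson intervals, and levels have 95% Poisson intervals. Both hold only the error of counting, so they set 1 library against 1 other and not treated against untreated cells in general. For log2 ratios 0.5 reads were added on both sides. A change in every cell and a change in the share of cells with an open site cannot be told apart in such libraries.

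A pair of sequences illustrates limits of the measurement at these genes. The first is the 250 bases before the start site of Tlr9, the member with the most signal, from RefSeq on GRCm38.p6. The same bases lie at chr9:106124679-106124928 on the plus strand of NCBIM37, the build of the table. The capitals mark GAGGAA, the core of many sites of the myeloid factor PU.1, from -112 to -107.

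Tlr9 upstream: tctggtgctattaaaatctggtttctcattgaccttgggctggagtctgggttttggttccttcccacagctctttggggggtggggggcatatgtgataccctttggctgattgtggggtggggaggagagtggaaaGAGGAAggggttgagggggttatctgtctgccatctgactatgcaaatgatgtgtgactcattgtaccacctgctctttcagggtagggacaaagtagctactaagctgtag

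The windows of Tlr9 begin 28 bases before its start site, so they hold the end of this sequence but not the motif. The second sequence is the longest run of identical bases in the windows of Tlr1 and Tlr6, 229 bases within the coding exon of each gene, read on the gene's minus strand in NCBIM37. In Tlr1 it lies at chr5:65316776-65317004 and in Tlr6 at chr5:65345067-65345295.

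Tlr1 and Tlr6 shared run: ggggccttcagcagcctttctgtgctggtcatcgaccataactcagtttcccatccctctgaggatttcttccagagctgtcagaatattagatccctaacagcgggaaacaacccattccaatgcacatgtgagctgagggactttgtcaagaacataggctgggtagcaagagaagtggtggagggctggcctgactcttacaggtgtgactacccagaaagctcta

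The coding spans of these neighboring genes lie 25910 bp apart, and the genes share 9 such runs of at least 32 bases, 873 bases in all. In the windows of Tlr1 80.0% of the 32-base sequences occur once in the genome and in those of Tlr6 78.5%. The genes share 594 such sequences, which are all of the 594 repeated ones in Tlr6 and most of the 694 in Tlr1, and reads there could belong to either gene. The lowest value was 62.3% in Tlr8, and it was 88.5% in Tlr4 and 91.9% in Tlr13. In Tlr2, Tlr3, Tlr5, Tlr7 and Tlr9 it was between 97.3% and 100%.

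Of the 10 members, Tlr9 had by far the most DNase I signal per window in untreated M1 cells, Tlr2 and Tlr5 were near the median of all genes and the other 7 were lower. The 10 genes held 1218 reads over 266 windows in M1 cells and 1116 reads after IL-6. Their median level was 4.19 reads per window in M1 cells, against 7.75 for all genes, and 4.15 scaled reads per window after IL-6, against 8.14. The level was below the median of all genes for 8 of 10 members in M1 cells and for 7 of 10 after IL-6. From the lowest to the highest member the level spanned 56.4-fold in M1 cells and 16.7-fold after IL-6.

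**Figure D1:**
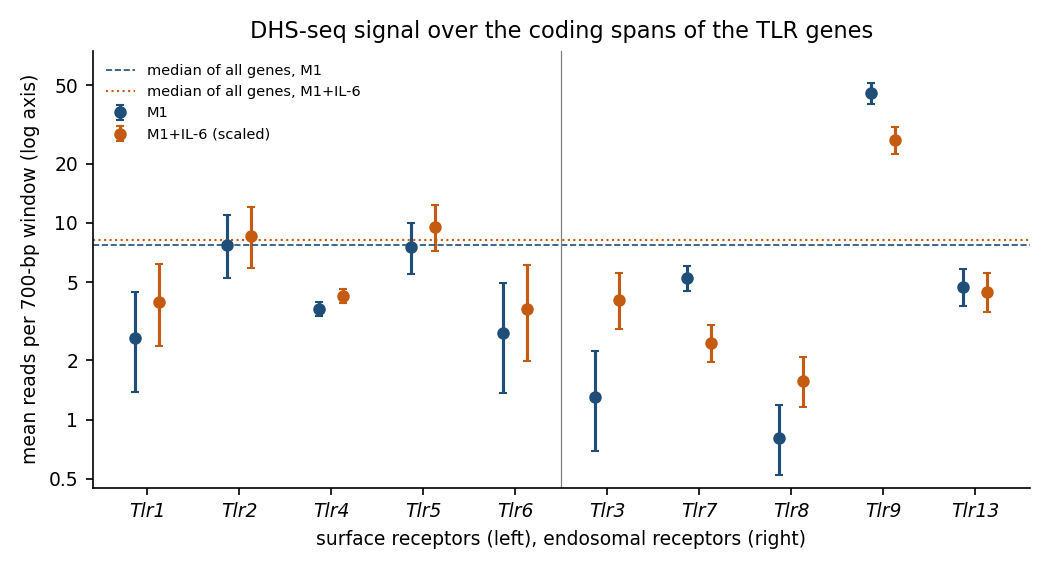
Mean reads per 700-bp window (log axis) over the coding span of each TLR gene in M1 cells (blue) and, scaled, in M1+IL-6 cells (orange), 1 library each, with 95% Poisson intervals as bars and the median of all genes as dashed and dotted lines. Tlr9 stands far above the other 9 genes in both libraries, at 45.5 and 26.3 reads per window.

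In M1 cells the order from high to low was Tlr9, Tlr2, Tlr5, Tlr7, Tlr13, Tlr4, Tlr6, Tlr1, Tlr3 and Tlr8. The level of Tlr9, 45.5 reads per window (40.3 to 51.2), was at the 95.04 percentile of all genes, and the next gene, Tlr2, had 7.75 (5.27 to 11). The intervals of all other neighbors in this order overlapped. After IL-6 the order was Tlr9, Tlr5, Tlr2, Tlr13, Tlr4, Tlr3, Tlr1, Tlr6, Tlr7 and Tlr8. Here the intervals of Tlr9 and Tlr5 were apart, and so were those of Tlr2 and Tlr13, while all other neighbors overlapped. A place in these orders depends on the transcript that stands for the gene. Over Tlr4-001, a shorter transcript of Tlr4, the level was 7.25 reads per window in M1 cells and 5.19 after IL-6.

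Tlr7, Tlr8 and Tlr13 lie on the X chromosome, where the median level was low. The median of its 927 genes was 1.87 reads per window in M1 cells, against 8.0 for 21648 autosomal genes. Among the genes of the X chromosome, Tlr7 was at the 83.6 percentile in M1 cells, Tlr13 at 82.0 and Tlr8 at 25.2. After IL-6 Tlr7 was at 56.2, Tlr13 at 83.9 and Tlr8 at 34.7.

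Comparing the libraries shows how the signal over these genes differed between the untreated library and the IL-6 library. The study's methods set more than 21 reads for a hypersensitive site. Here the same number was applied to the sum over a whole span of several windows, so passing it is not a site call. Of the 10 members, 8 had more than 21 reads over their span in either library, and Tlr1 and Tlr6 did not. Among these 8, Tlr7 was at least 2-fold lower after IL-6, against 13.4% of 18472 genes above 21 reads, and Tlr3 was at least 2-fold higher, against 1.71%. Tlr3 passed the 21 reads only through the IL-6 library, where it is high (13 and 39 reads), so this call is given as a value and not as a sign that it stands apart. The interval of the ratio lay below 1 for Tlr7 and Tlr9, 2 of 10 members, against 28.9% of 22001 genes with reads. It lay above 1 for Tlr3, Tlr4 and Tlr8, 3 of 10 members, against 25% of these genes, and held 1 for the other 5. The median log2 ratio was 0.28 over the members, 0.34 over the surface receptors and -0.088 over the endosomal receptors, against 0.054 over all genes.

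The scaling decides part of these directions. An alternative set the libraries level at the median ratio of 1193 genes with a mean above 21 reads per window in both, which adds 1.26 to every log2 ratio and puts the median of all genes at 1.32. With it 8 of 10 members were 2-fold or more higher and none was 2-fold or more lower, against 116 lower and 13619 higher of 20203 genes. Tlr7 and Tlr9, which are lower on the deposited scale, then had log2 ratios of 0.17 and 0.47, which are above 0 but below the median of all genes. The other 3 scalings moved log2 ratios by at most 0.054.

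**Figure D2:**
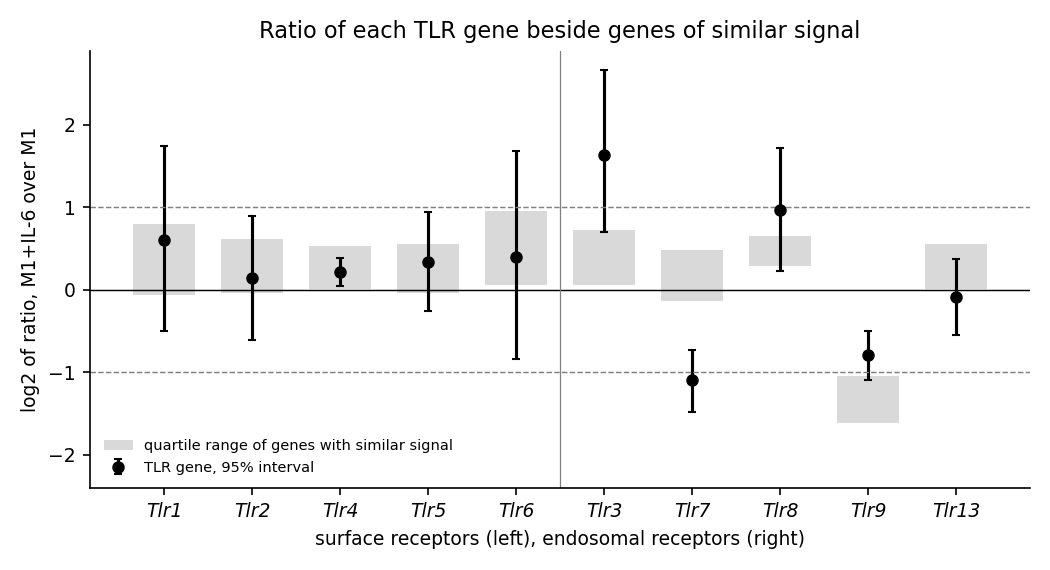
Log2 of the ratio of M1+IL-6 over M1 for each TLR gene (points, with 95% Clopper-Pearson intervals) and the interquartile range of genes with summed signal within 10% and up to 2-fold more or fewer windows (grey bars), with 2-fold lines dashed. The points of Tlr3, Tlr8 and Tlr9 lie above their grey bars and those of Tlr7 and Tlr13 below, and with the scaling to strong genes Tlr7 and Tlr9 turn to 0.17 and 0.47.

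**Figure D3:**
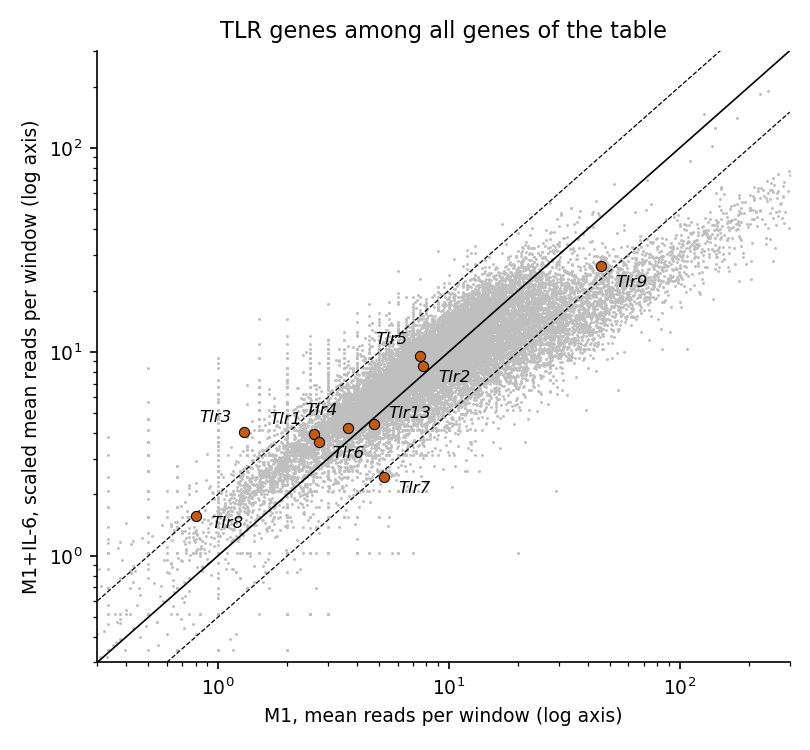
Mean reads per window of 21736 genes (grey) and of the TLR genes (orange) in M1 cells and, scaled, in M1+IL-6 cells, on log axes, with equality as a solid line and 2-fold differences dashed, where 218 genes lie outside the axes and 869 with 0 reads in a library are not drawn. Genes with high signal lie below the line of equality, Tlr9 among them, and Tlr3 lies above the upper dashed line.

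Among the surface receptors, Tlr4 recognizes lipopolysaccharide and was the only member whose direction on the deposited scale depended on the transcript. Its longest span belongs to Tlr4-004, which reaches past the receptor's own coding exons and covers 145 windows at chr4:66488801-66590300, of which 0.458% of bases are coding in that transcript. It held 529 reads in M1 cells and 593 after IL-6. The level was 3.65 reads per window in M1 cells and 4.25 after IL-6, a ratio of 1.16 (1.03 to 1.31). Tlr4-001, a transcript of 3 exons and 2508 coding bases, covers the first 20 of these windows, up to 66502800. These windows held 145 reads in M1 cells and 100 after IL-6, a ratio of 0.716 (0.549 to 0.93), on the log2 scale -0.48, which became 0.78 with the scaling to strong genes. The remaining 125 windows held 384 and 493 reads, a ratio of 1.33 (1.16 to 1.53). The intervals of the 5′ and 3′ parts did not overlap, and this does not depend on the scaling, which multiplies both alike.

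In M1 cells 1 window of the 5′ part of Tlr4 stood out. The mean and SD of a span bound the reads that its strongest window can hold, and this window of the 5′ part had at least 59 and at most 86 of its 145 reads. No window of the 3′ part could exceed 53. After IL-6 the strongest window of the 5′ part had 17.6 to 38.4 scaled reads. The other 19 windows of the 5′ part held 59 to 86 reads in M1 cells and 65.4 to 86.2 scaled reads after IL-6, so that their bounds overlapped. The start site of Tlr4-003 lies within the windows and that of Tlr4-001 lies 183 bp outside them.

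Tlr2, which recognizes bacterial lipopeptides together with Tlr1 or Tlr6, covers 4 windows at chr3:83640201-83643000. It held 31 reads in M1 cells and 33 after IL-6, a ratio of 1.11 (0.656 to 1.87). After IL-6 its windows can only have held 11, 8, 7 and 7 reads. Tlr1 covers 5 windows at chr5:65315601-65319100 and Tlr6 covers 4 windows at chr5:65344301-65347100. Tlr1 held 13 reads in M1 cells and 19 after IL-6, a ratio of 1.52 (0.711 to 3.34). Tlr6 held 11 and 14 reads, a ratio of 1.32 (0.557 to 3.22). A difference could not be detected at this depth for any of these 3 genes. In M1 cells the windows of Tlr1 can only have held 4, 3, 3, 2 and 1 reads and those of Tlr6 only 4, 3, 3 and 1, so neither had a strong window there.

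Tlr5, the receptor of flagellin, covers 6 windows at chr1:184902201-184906400. It held 45 reads in M1 cells and 55 after IL-6, a ratio of 1.27 (0.84 to 1.93). Its second transcript isolates the first window, at chr1:184902201-184902900, which held 12 reads in M1 cells and 18 after IL-6. The other 5 windows held 33 and 37 reads. Per window the first one held more reads than the rest in both libraries, with overlapping intervals in M1 cells, and the intervals of the ratios of the first window, 1.56 (0.71 to 3.54), and of the rest, 1.16 (0.708 to 1.92), overlapped.

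**Figure D4:**
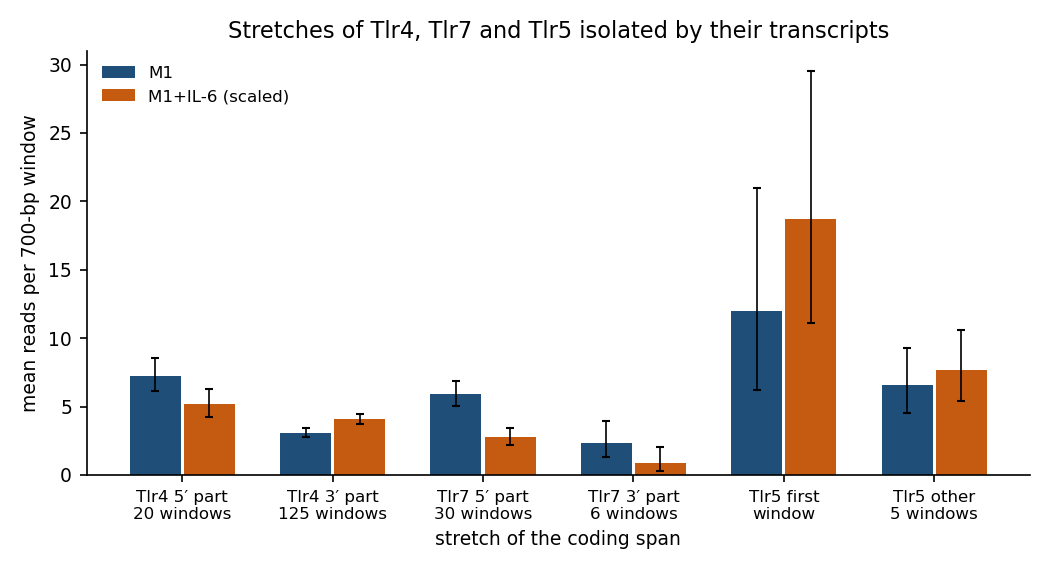
Mean reads per 700-bp window in stretches of the coding spans of Tlr4, Tlr7 and Tlr5 that their listed transcripts isolate, in M1 cells (blue) and, scaled, in M1+IL-6 cells (orange), with 95% Poisson intervals. The 5′ and 3′ parts of Tlr4 differ in opposite directions on the deposited scale, from 7.25 to 5.19 and from 3.07 to 4.09 reads per window, and both ratios are above 1 with the scaling to strong genes.

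Among the endosomal receptors, Tlr9 recognizes DNA with unmethylated CpG and covers 6 windows at chr9:106124901-106129100, which hold its start site and both coding exons. It held 273 reads in M1 cells and 152 after IL-6. The ratio was 0.578 (0.471 to 0.707), a log2 ratio of -0.79, which the scaling to strong genes turned to 0.47. Genes of high signal were lower throughout on the deposited scale. Of 817 genes with a level of 32 to 64 reads per window over both libraries, the bin of Tlr9, 80.7% were at least 2-fold lower and their median log2 ratio was -1.45. Among 227 genes with summed signal within 10% and a like number of windows, whose median was -1.35, Tlr9 was at the 85.0 percentile. Its level after IL-6 was still at the 97.0 percentile of all genes. The windows of Tlr9 also had the most bases G and C of all members, 56.2%, and the most CpG, 28.1 per kb. Depth and base composition were not tested as sources of any of these values.

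The reads of Tlr9 were spread unevenly in M1 cells and evenly after IL-6. In M1 cells the SD between its 6 windows was 42.9, the strongest window had 85 to 133 reads and the weakest at most 27. After IL-6 the SD was 3.58 scaled reads, the strongest window had 29.1 to 33.2 scaled reads and the weakest between 19 and 23 unscaled reads. The strongest window thus had 0.219 to 0.391 of its M1 reads, and 0.524 to 0.937 with the scaling to strong genes, if counting error is left aside. The other 5 windows together had 0.663 to 0.92 of their M1 reads on the deposited scale, and 1.59 to 2.2 times as many with the scaling to strong genes. The strongest window need not be the same one in both libraries.

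Tlr7, a receptor of single-stranded RNA, covers 37 windows at chrX:163742601-163768500 and includes its start sites. It held 193 reads in M1 cells and 87 after IL-6. The level was 5.22 reads per window (4.51 to 6.01) in M1 cells and 2.44 (1.96 to 3.01) after IL-6. The ratio was 0.468 (0.359 to 0.606), a log2 ratio of -1.09 on the deposited scale and of 0.17 with the scaling to strong genes. Unlike Tlr9, it was low among genes of like signal. It was at the 1.34 percentile of 298 such genes, whose median log2 ratio was 0.23, a place within this set that a common factor does not change. Because Tlr7 is the member with the lowest ratio, this place follows in part from that choice.

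The transcripts of Tlr7 divide its span. The 30 windows at the 5′ end, at chrX:163747501-163768500, held 177 reads in M1 cells and 80 after IL-6, a ratio of 0.469 (0.356 to 0.614) that became 1.13 with the scaling to strong genes. One of these windows had at least 29 and at most 66 reads in M1 cells. After IL-6 no window of the stretch could have more than 14.5 scaled reads. The 6 windows at the 3′ end, which hold most of the coding exon, held 14 and 5 reads, a ratio of 0.371 (0.105 to 1.09). The intervals of both parts overlapped widely.

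The coding span of Tlr8 lies 41585 bp from that of Tlr7, and Tlr8 recognizes products of RNA breakdown. It covers 31 windows at chrX:163680301-163702000, held 25 reads in M1 cells and 47 after IL-6 and was the lowest member in both libraries. The level was 0.806 reads per window in M1 cells and 1.57 after IL-6, a ratio of 1.95 (1.18 to 3.31). Its neighbor Tlr7 thus differed in the opposite direction on the deposited scale, and the intervals of the ratios of Tlr7 and Tlr8 were apart, which a common factor does not change. Because only 62.3% of its 32-base sequences are unique, the level of Tlr8 could also depend on how repeated reads were placed, which was not tested.

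Tlr3, a receptor of double-stranded RNA, had the highest ratio of all members. It covers 10 windows at chr8:46482101-46489100, held 13 reads in M1 cells and 39 after IL-6. The level was 1.3 reads per window (0.692 to 2.22) in M1 cells and 4.05 (2.88 to 5.53) after IL-6. The ratio was 3.11 (1.63 to 6.36), a log2 ratio of 1.60. This was higher than in all 119 genes of like signal, whose median was 0.42. Because Tlr3 is the member with the highest ratio, its place among these genes follows in part from that choice. It rests on 13 and 39 reads and is given as a value, not as a sign that Tlr3 stands apart. The SD between windows went from 1.16 to 5.12 scaled reads. In M1 cells no window had more than 4 reads, while after IL-6 the strongest had 11.4 to 17.6 scaled reads and the other 9 windows together 22.8 to 29.1, against 9 to 10 in M1 cells. Of 408 other genes with 10 windows, those most like Tlr3 in both levels, by distance on the log2 scale, were Gm5152 with 14 and 37 reads, A530053G22Rik with 15 and 31 and St8sia3 with 19 and 39. The start site of Tlr3 lies 6793 bp outside its windows, so its promoter is not measured here.

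Tlr13, which recognizes bacterial ribosomal RNA, covers 18 windows at chrX:103342401-103355000. It held 85 reads in M1 cells and 77 after IL-6, a ratio of 0.94 (0.682 to 1.30). The sum hardly moved, while the SD between windows was 4.6 in M1 cells and 2.16 scaled reads after IL-6. Its strongest window had 10 to 23 reads in M1 cells and 6.23 to 12.5 scaled reads after IL-6.

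A window above 21 reads was certain for Tlr4, Tlr7 and Tlr9 in M1 cells, 3 of 10 members, against 35.7% of all genes. It was impossible for 6 members and undecided for Tlr13. After IL-6 it was certain for Tlr9, 1 of 10 members, against 19.2% of all genes, impossible for 8 and undecided for Tlr4. From the table's rows alone, the strongest window was certainly lower after IL-6 in 2 members, against 27.6% of all genes, and certainly higher in 4, against 16.3%. With the bounds narrowed by the members' other transcripts and by listing all possible sets of reads, the numbers were 3 lower and 5 higher. The 3 lower were the genes with a strong window in M1 cells, and the 5 higher were Tlr1, Tlr3, Tlr5, Tlr6 and Tlr8. No share over all genes was taken with narrowed bounds. All these bounds leave counting error aside, and the higher calls rest on few reads. The strongest window of Tlr1 had 4 reads in M1 cells and 5.19 to 6.23 scaled reads after IL-6. That of Tlr6 had 4 and 6.23 to 7.27, and that of Tlr8 had 3 to 6 and 6.23 to 14.5. For Tlr8 the least after IL-6 was 6 unscaled reads, equal to the most possible in M1 cells. Its call as higher, in either count, thus rests on the scaling of 1.04 alone. The share of 16.3% of all genes was taken by the same rule, so equal reads can count as higher there too. With the scaling to strong genes the bounds stayed below 1 for Tlr9 alone, at 0.524 to 0.937. The variance between windows divided by their mean was lower after IL-6 in 6 of 10 members, against 69.4% of 21111 genes. For Tlr9 it went from 40.4 to 0.468, for Tlr7 from 20.9 to 1.87 and for Tlr4 from 18.2 to 4.16, while for Tlr3 it went from 1.03 to 6.24.

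**Figure D5:**
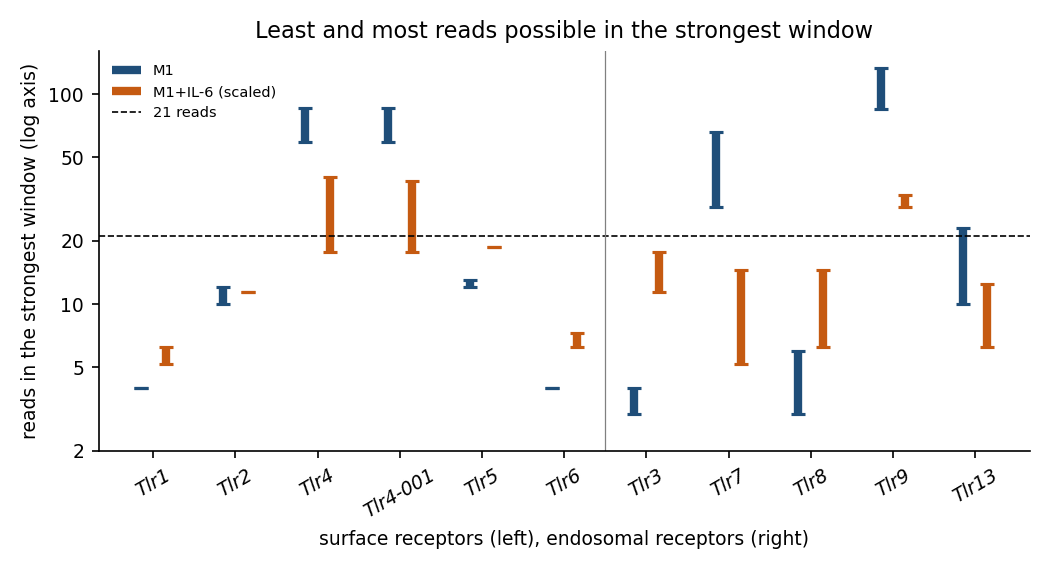
The least and most reads that the strongest 700-bp window of each TLR gene can hold (log axis), from the mean and SD of its transcripts, in M1 cells (blue) and, scaled, in M1+IL-6 cells (orange), where a single dash is an exact value and the dashed line marks 21 reads. Tlr4, Tlr7 and Tlr9 lie above the line in M1 cells and Tlr9 alone lies wholly above it after IL-6, at 29.1 to 33.2 scaled reads.

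Whether a span holds a start site bears on these windows. It does for 5 members, Tlr4, Tlr5, Tlr7, Tlr8 and Tlr9, and the 3 genes with a certain strong window in M1 cells are among them. Over the whole table, 39.4% of 17578 genes whose span holds a start site had such a window in M1 cells, against 22.5% of 5014 genes whose span holds none. After IL-6 these shares were 20.6% and 14.5%. The sets of genes were not matched for the number of windows, and an effect of start sites was not tested. For Tlr1, Tlr2, Tlr3, Tlr6 and Tlr13 the nearest annotated start site lies 2689 to 6793 bp outside the windows.

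RefSeq promoters were found for 8 of the 10 members, with 10 entries, and none was matched for Tlr4 and Tlr7. GAGGAA, on either strand (TTCCTC on the other), occurs in the 250 bases before the start site in 4 of these 10 entries, each of another member, against 23.3% of 32851 mouse promoters of the same length. It lies at -112 to -107 in Tlr9, at -83 to -78 in Tlr13 and at -23 to -18 in Tlr1, and on the other strand at -77 to -72 in Tlr8. TATAAA, which does not overlap with it, occurs in Tlr6 and, on both strands at overlapping positions, in Tlr8, against 12.4% of promoters. Only the last 28 of the 250 bases of Tlr9 lie within measured windows, so none of these matches lies in a measured window.

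The genes that act with TLRs had a median level of 10.0 reads per window in M1 cells, against 4.19 for the receptors. Of 59 pathway genes in 7 groups, 58 had more than 21 reads, 10 were lower by 2-fold or more and 0 higher by as much, against 13.4% and 1.71% of genes. Their median log2 ratio was -0.23 on the deposited scale, and 1.03 with the scaling to strong genes, 0.28 below the median of all genes in either case. With that scaling 30 of the 59 were 2-fold or more higher and 0 lower by as much, against 13619 higher and 116 lower of 20203 genes. No test of these groups was made, and the values below are on the deposited scale.

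Of 6 co-receptors and ligand carriers, Cd14, which hands lipopolysaccharide to Tlr4, was at least 2-fold lower, from 152 to 59 reads and a log2 ratio of -1.30. Ly96, the partner of Tlr4 in binding lipopolysaccharide, had 234 and 132 reads, a ratio of 0.586 (0.469 to 0.728). The highest of the group was Cd36, with a log2 ratio of 0.50. Of 7 genes of TLR folding, transport and cleavage, 3 were at least 2-fold lower. These were Unc93b1, which brings endosomal TLRs out of the endoplasmic reticulum, from 711 to 235 reads and a log2 ratio of -1.54, the chaperone Hsp90b1, from 1053 to 270 reads and -1.91, and its co-chaperone Cnpy3, from 645 to 233 reads and -1.41. The protease Lgmn was the highest, at 0.30. Over both libraries these 3 genes had a level of 16 to 32 reads per window. The 3007 genes of this range had a median log2 ratio of -0.59 and a lower quartile of -1.12. Of those above 21 reads, 30.4% were 2-fold or more lower. The 3 genes lay below that quartile, but they were named for being at least 2-fold lower, so this follows in part from that choice. Ctss, of the same group and range, was at -0.74, above that quartile.

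Of 5 adaptors, Myd88, used by all members but Tlr3, was at least 2-fold lower, from 198 to 95 reads and a log2 ratio of -1.002. Ticam1, the adaptor of Tlr3, had 64 and 67 reads, a ratio of 1.09 (0.76 to 1.56), and Sarm1 was the highest at 0.26. Of 17 kinases and ubiquitin ligases, Ikbkg, the regulatory subunit of the IkB kinase, was at least 2-fold lower at -1.15, and the highest was Tab3 at 0.55. Of 7 transcription factors none passed 2-fold, and they ran from -0.88 in Irf3 to 0.064 in Rela. Of 6 negative regulators, Nfkbia, the inhibitor of NF-kB, was at least 2-fold lower at -1.11, and Il1rl1 was the highest at 0.48. Of 11 cytokine genes that TLRs induce, Tnf was at -1.74, Ccl3 at -1.70 and Il12a at -1.23, all at least 2-fold lower, and the highest was Ifnb1 at 0.56, with 9 and 13 reads. Of 8 other microbial sensors none passed 2-fold, and they ran from -0.83 in Nod2 to 0.33 in Nlrp3. Over both libraries Cd14, Myd88, Nfkbia, Ccl3 and Tnf had a level of 32 to 64 reads per window. There 80.7% of genes above 21 reads were at least 2-fold lower, with a median log2 ratio of -1.45. Cd14, Myd88 and Nfkbia lay above this median, and Ccl3 and Tnf below it. Il12a was in the range of 16 to 32, and Ikbkg in that of 4 to 8, where 1.98% were at least 2-fold lower.

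The nearest listed gene on each side was read beside each member, with distances taken between coding spans. Twf2, 7709 bp before Tlr9, had a ratio of 0.596 (0.521 to 0.681), close to that of Tlr9 (0.578), while Alas1, 7427 bp after it, had 0.972 (0.823 to 1.15). On the X chromosome Prps2, 18903 bp after Tlr7, had a ratio of 0.6 (0.499 to 0.719) and Tmsb4x, 33744 bp before Tlr8, had 0.269 (0.16 to 0.434). Of these 4 listed genes in a row, Tlr8 was the only one whose ratio was above 1 on the deposited scale, and with the scaling to strong genes Tlr7 and Prps2 too were above 1, while Tmsb4x was not. At Tlr13, Atp7a had 0.892 (0.72 to 1.10) and Pgk1 had 0.468 (0.376 to 0.578). At Tlr3, Fam149a had 1.17 (0.999 to 1.38) and Sorbs2, 333052 bp away, had 1.53 (1.37 to 1.72). The upper bound of Sorbs2 was above the lower bound of Tlr3, 1.63. At Tlr4 the nearest listed genes are remote. Astn2, 423472 bp away, had 1.34 (1.29 to 1.40) and Dbc1, 1832907 bp away, had 1.52 (1.35 to 1.72). The ratio of Astn2 lay near that of the 3′ part of Tlr4 (1.33). Around Tlr1 and Tlr6, Klf3 had 1.74 (1.34 to 2.28) and Fam114a1 had 0.969 (0.879 to 1.07). Next to Tlr2, Sfrp2 had 1.49 (1.16 to 1.92) and D930015E06Rik had 1.08 (1.02 to 1.15). At Tlr5, Susd4 had 1.31 (1.23 to 1.39). Gm8214, 599772 bp from Tlr5 and with 8 reads in each library, had 1.04 (0.34 to 3.17).

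Markers were read to check the cell label, as levels over coding spans. Of 9 macrophage markers, 3 were lower by 2-fold or more after IL-6 and 0 higher by as much, against 13.4% and 1.71% of genes, and the median log2 ratio was -0.43. Cd68, which marks macrophages, had the highest level of them, 129 reads per window in M1 cells and 25.95 after IL-6. Of 11 myeloid progenitor markers Spi1 was not analysed here, and 2 of the other 10 were at least 2-fold lower, with a median of -0.50 and Cebpa as the lowest at -1.61. Csf1r and Itgam count in both of these lists, so their medians are not independent. Of 4 erythroid markers 1, Klf1, was at least 2-fold lower. These shares were read beside the same 13.4% of all genes. All 6 lymphoid markers were between 6.17 and 10.5 reads per window in M1 cells and between 7.54 and 16.1 after IL-6, with a median log2 ratio of 0.43, and none was at 0. With the scaling to strong genes the medians were 0.83 for macrophage, 0.76 for progenitor, 1.10 for erythroid and 1.69 for lymphoid markers. In M1 cells the progenitor markers ran from 4.1 reads per window in Kit to 51.5 in Prtn3, so the levels of lymphoid markers lay within their range and the labelled cell type could not be read from coding spans alone. The part of other cells in the values of the TLR genes was not tested.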

How the data were processed

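DHS-seq signal was deposited by the authors as 1 table for 1 library of M1 cells and 1 library of M1+IL-6 cells, with reads aligned to NCBIM37 (mm9) by BWA, per the labels, and summarized in Seqmonk. The deposited signal is the mean and SD per transcript over 700-bp windows of its coding span. Reads were recovered as the mean times the windows over the worth of 1 read (1.0 and 1.04); 100% of rows came within 0.05 of a whole number. The design had assumed reads, and the table holds such means. Sums of squares recovered from the SD bound the strongest window. 0 columns of samples were left without a group. No test across libraries is possible with 1 library each, so none was made. Genes of like signal are those with summed signal within 10% and a window number within a factor of 2. Recovery and intervals were tested on simulated data, in which all windows of a span had the same expected reads. Spans with uneven windows, as in Tlr9, were not simulated. The members and lists were chosen with earlier results of these data known. Genes named are all members, the members of each pathway list past 2-fold with its highest and lowest, the nearest listed gene on each side and the 3 genes most like Tlr3; other genes, and Ly96 and Ticam1 for their roles, were named after their values were seen. Sequence uniqueness used all 32-base sequences of NCBIM37 with GENCODE M1, and promoters are from RefSeq on GRCm38.p6. Python 3.11.15, scipy 1.17.1, numpy 2.4.6, numba 0.67.0, pysam 0.24.0, pandas 2.3.3 and matplotlib 3.10.9 were used.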

Additional observations from a re-analysis of the deposited data

How the results depend on the processing

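No paired analysis was possible because there is 1 library for each treatment, and leaving out a replicate was not possible for the same reason. Of 100 values under alternatives, 75 stayed within their limits (the 95% interval for a gene, 0.1 for a median and 1.5 times for a count). The scaling to genes above 21 reads per window in both libraries moved the log2 ratio to 1.85 for Tlr1, 1.40 for Tlr2, 2.86 for Tlr3, 1.48 for Tlr4, 1.60 for Tlr5, 2.21 for Tlr8 and 1.17 for Tlr13, and turned Tlr7 to 0.17 and Tlr9 to 0.47. It gave 0 members lower by 2-fold or more and 8 higher by as much, a member median of 1.54 and a pathway median of 1.03. With the transcript of fewest windows Tlr4 turned to -0.48, Tlr7 was at -2.06 on 1 window with 6 and 1 reads, and Tlr8 at 0.054 on 1 window with 2 and 2 reads. The count of members at least 2-fold lower was then 0, since Tlr7 no longer passed the filter of more than 21 reads. The member median was 0.098. Tlr4-001 in place of Tlr4-004, chosen after the data were seen, likewise gave -0.48 and changed no count. A fold of 1.5 gave 2 members lower and 2 higher. Above 50 reads, which leaves 5 members, 0 were at least 2-fold higher, since Tlr3 is left out, and the member median was -0.088. A window above 50 reads in M1 cells was certain for 1 member from the table's rows alone, and above 21 scaled reads after IL-6 for 1. No scaling, the total over coding spans, the median of ratios over genes above 21 reads and 5 added reads each left all 14 results within these limits. Depth limits Tlr1, Tlr6, Tlr3, Tlr2 and Tlr8 most, with 11 to 47 reads a library, and the ratio of Tlr3 rests on 13 and 39 reads.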

Other observations

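Further TLR genes of the mouse are listed in the table and were looked at after the values of the members had been seen. Tlr12, an endosomal receptor of a parasite profilin, covers 5 windows at chr4:128292501-128296000. It held 174 reads in M1 cells and 93 after IL-6, with levels of 34.8 and 19.3 reads per window, a ratio of 0.555 (0.427 to 0.718). Its level in M1 cells was thus nearer to that of Tlr9 than to that of any other member. Its strongest window had 58 to 84 reads in M1 cells and 27.0 to 39.5 scaled reads after IL-6. Tlr11, which also recognizes profilin, covers 5 windows at chr14:50979601-50983100 and held 35 and 38 reads, a ratio of 1.13 (0.693 to 1.84), with no window above 14 reads in M1 cells.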
